A study of Aedes aegypti and Anopheles culicifacies with 47 samples.

Results

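Transcript levels of 4 circadian clock genes of the yellow fever mosquito *Aedes aegypti* were followed over the day in its olfactory tissue and its brain. The 4 genes are *cycle* (*cyc*, AAEL002049), *vrille* (*vri*, AAEL011371), *Pdp1* (AAEL005255) and *cryptochrome 1* (*cry1*, AAEL004146). They were taken by ID, 4 of the 19804 gene IDs in the *Aedes* count files and of the 34533 IDs of both mosquito species in the study. Wild-type females aged 5 to 6 days, all of 1 cohort and reared in cycles of 12 h light and 12 h dark, were dissected at 6am, 12pm, 6pm and 12am. The hour at which lights came on is not given in the sources used here. Olfactory tissue pooled antennae, maxillary palps, proboscis and labium, and gave 8 libraries, of which 6am and 12pm had 2 each, 6pm had 3 and 12am had 1. Brain gave 2 libraries at each clock time. The study asked how the daily rhythm of both tissues differs between a mosquito that bites by day and one that bites by night, and the other species is not described here.

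In *Drosophila*, where this clock is best known, the protein CYCLE pairs with CLOCK, and the pair switches on target genes that include *vrille* and *Pdp1*. VRILLE then represses, and PDP1 activates, transcription of *Clock*, so that both form a further feedback loop beside that of period and timeless. CRYPTOCHROME 1 is the blue-light sensor through which light resets the fly clock. The *cycle* transcript itself stays at a steady level in *Drosophila*, whereas in mosquitoes it has been reported to oscillate.

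The reads assigned to genes ranged from 853349 to 6558092 per olfactory library and from 5072614 to 10202123 per brain library. Levels are given in CPM, a gene's reads over all reads in genes of that library, times 1e6. CPM does not correct for gene length, so levels of different genes are not compared. Single counts of the 4 genes ran from 24 reads (*cyc* in olfactory 6pm replicate 2, the shallowest library) to 2320 reads (*Pdp1* in olfactory 12am replicate 3). The count of *cyc* in brain 6am replicate 3 was lost to a damaged stretch of that file, which leaves *cyc* with 1 brain library at 6am and 7 brain libraries in all. The line of *cry1* in the same file lies shortly before a damaged stretch, where an altered digit could go unseen. In bulk tissue, fewer cells that express a gene and less of its RNA per cell cannot be told apart.

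*cyc*, whose protein is the partner of CLOCK, was the 1 gene of the 4 with contrasts between clock times that passed the test. Its levels were high at 6am and 12pm and low at 6pm and 12am. In olfactory tissue it had 74.3 and 153 CPM at 6am, 109 and 101 CPM at 12pm, 26.1, 28.1 and 26.1 CPM at 6pm, and 43.2 CPM at 12am. All 4 libraries of 6am and 12pm lay above all 4 of 6pm and 12am. The 6am and 12pm ranges overlapped, whereas the single 12am library lay above the 3 libraries of 6pm. *cyc* fell 5.16-fold at 6pm against 6am, a log2 change of -2.37 (SE 0.33, 3 against 2 libraries, edgeR's quasi-likelihood test, adjusted p = 0.0183). It also fell at 6pm against 12pm, by 2.19 on the log2 scale (SE 0.34, 3 against 2 libraries, edgeR adjusted p = 0.0449). These were the 2 contrasts called among 24 of the 4 genes in olfactory tissue (6 contrasts a gene), and 11 of the 24 had an unadjusted p under 0.05, against 2.22 to 9.04% of all genes in each contrast. Of all 10060 genes tested, 0.0696% were called lower in the contrast of 6pm with 6am (0.0994% in either direction) and 0.0497% in that of 6pm with 12pm. The other 4 contrasts called 0% of genes.

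Both *cyc* calls in olfactory tissue were close to the threshold with edgeR as reported, though the direction held in every alternative fit. Adjusted p was lower with DESeq2 (3.17e-06 against 6am and 1.40e-04 against 12pm). It was also lower in edgeR with no filter on low counts (1.57e-07 and 1.00e-05). The log2 change of 6pm against 6am lay between -2.72 and -1.83 over 16 alternatives, of which 11 passed. It missed with no TMM factor (adjusted p = 0.0519), and without 12pm replicate 1 (0.0666), 12pm replicate 2 (0.0592), 6pm replicate 1 (0.106) or 6pm replicate 3 (0.142). The log2 change of 6pm against 12pm lay between -2.32 and -1.97, and 8 of 16 alternatives passed. That call was lost with no TMM factor (0.107), in 1 fit of both tissues (0.259), and without 12pm replicate 1 (0.182), 12pm replicate 2 (0.308), 6pm replicate 1 (0.249), 6pm replicate 2 (0.234), 6pm replicate 3 (0.278) or 12am replicate 3 (0.0592).

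In the brain *cyc* was again high at 6am and 12pm, but its differences did not pass edgeR's test. It had 65.9 CPM in the 1 library at 6am, 96.4 and 60.4 CPM at 12pm, 24.5 and 16.2 CPM at 6pm, and 37.4 and 19.4 CPM at 12am. The 3 libraries of 6am and 12pm lay above the 4 of 6pm and 12am, and the ranges of 6pm and 12am overlapped. In the fit without brain 6am replicate 3, the log2 change was -1.67 (SE 0.48, edgeR adjusted p = 1.00) at 6pm against 6am and -1.93 (SE 0.42, adjusted p = 0.994) at 6pm against 12pm. DESeq2 called the contrast of 6pm with 12pm (log2 change -1.95, adjusted p = 0.0444, with 0.0343% of all genes called), and none of the other 14 alternatives did.

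**Figure D1:**
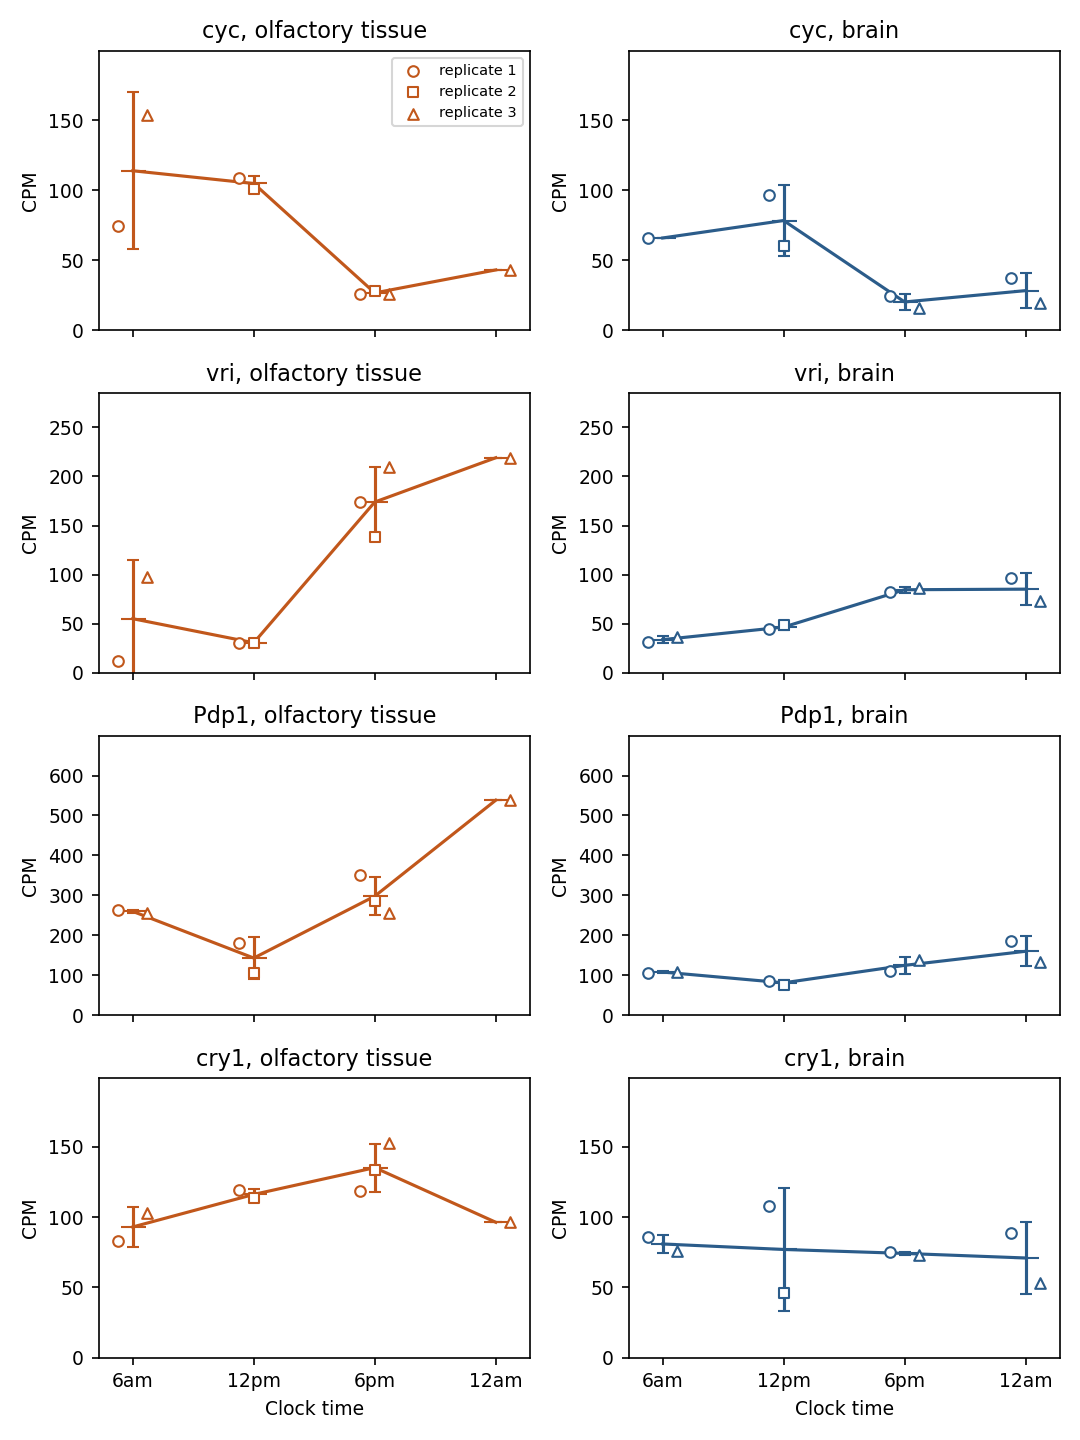
Levels of cyc, vri, Pdp1 and cry1 in CPM (vertical axis) at 4 clock times (horizontal axis), olfactory tissue on the left and brain on the right; open symbols are libraries, short horizontal bars are means, vertical bars are ± SD where a clock time has 2 or more libraries, and lines join the means (the lower SD bar of olfactory vri at 6am ends at the axis). The 3 olfactory libraries of cyc at 6pm lie between 26.1 and 28.1 CPM, below every 6am and 12pm library, and the 2 olfactory libraries of vri at 6am lie far apart, at 12.6 and 97.7 CPM.

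*vri*, in the fly a target of CLOCK and CYCLE that encodes a repressor, was low where *cyc* was high, at 6am and 12pm, and high at 6pm and 12am. In olfactory tissue its level was 12.6 and 97.7 CPM at 6am, 30.6 and 30.7 CPM at 12pm, 174, 138 and 210 CPM at 6pm, and 219 CPM at 12am. All libraries of 6pm and 12am lay above all of 6am and 12pm. The 6am libraries enclosed both 12pm values, so these neighbours in the order of levels did not differ beyond their spread. The single 12am library exceeded the 6pm libraries, which averaged 174 ± 35.6 CPM (SD, n = 3). The 3 libraries with the least *vri* also had the lowest sums of a list of 4 IDs for olfactory sensory neurons. The summed level was 635 CPM in 6am replicate 1 and 775 and 476 CPM at 12pm, and it was 1284 CPM in 6am replicate 3, 1035, 1508 and 1100 CPM at 6pm and 1246 CPM at 12am. AAEL005776, which gave most of each sum, and AAEL009813 were lowest in the same 3 libraries. AAEL002922 and AAEL006360 on the list were not. AAEL002922 had 62.8 CPM in 6am replicate 1 and 40.1 CPM in 6am replicate 3. AAEL006360 had 6.14 CPM in 12pm replicate 2 and 3.78 CPM in 6am replicate 3. The part of this list in the *vri* differences was not tested.

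The log2 change of olfactory *vri* was 1.42 at 6pm against 6am (SE 0.64, edgeR adjusted p = 0.790) and 2.29 at 6pm against 12pm (SE 0.69, adjusted p = 0.538), and neither passed. The value against 6am rested on which 6am library was kept. It was 3.44 without 6am replicate 3 (adjusted p = 0.00865) and 0.64 without 6am replicate 1 (0.993), and over 16 alternatives the adjusted p ran from 0.00865 to 0.999. Against 12pm the adjusted p ran from 8.56e-06 to 0.998, and 4 of 16 alternatives passed, among them both fits that drop a 6am library (0.0159 when replicate 1 was dropped, 0.0209 when replicate 3 was).

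In the brain *vri* again had lower levels at 6am and 12pm than at 6pm and 12am. It had 31.3 and 36.5 CPM at 6am, 44.7 and 48.6 CPM at 12pm, 82.6 and 86.7 CPM at 6pm, and 97.0 and 73.5 CPM at 12am. The order was 6am, 12pm, then 6pm and 12am together, with no overlap between 6am, 12pm and that pair, and with overlap between 6pm and 12am. The log2 change was 1.36 at 6pm against 6am (SE 0.16, edgeR adjusted p = 0.357) and 0.88 at 6pm against 12pm (SE 0.16, adjusted p = 0.977). DESeq2 called the contrast with 6am (adjusted p = 1.07e-05, with 0.201% of all genes called), and none of the other 15 alternatives did.

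*Pdp1*, which in the fly encodes the activator of that further loop, was lowest at 12pm and highest at 12am in both tissues. In olfactory tissue it had 263 and 257 CPM at 6am, 181 and 106 CPM at 12pm, 351, 287 and 256 CPM at 6pm, and 538 CPM at 12am. Both 12pm libraries lay below all others, the ranges of 6am and 6pm overlapped, and the 12am library stood above the rest. The log2 change at 12am against 12pm was 1.73 (SE 0.41, 1 against 2 libraries, edgeR adjusted p = 0.606). This takes the spread at 12am, which had a lone library, to equal that of the other times. Over 15 alternatives the adjusted p ran from 0.0255 to 0.90, and 2 passed.

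The brain *Pdp1* levels were 107 and 110 CPM at 6am, 87.0 and 75.9 CPM at 12pm, 111 and 140 CPM at 6pm, and 187 and 134 CPM at 12am. Again both 12pm libraries were the lowest, and the ranges of 6pm and 12am overlapped. The log2 change at 12am against 12pm was 0.96 (SE 0.20, edgeR adjusted p = 1.00). *Pdp1* in the brain had its lowest level at 12pm, whereas that of *vri* was at 6am.

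*cry1*, in the fly the gene of the light sensor, varied least of the 4 between clock-time means. In olfactory tissue it had 83.0 and 103 CPM at 6am, 119 and 113 CPM at 12pm, 119, 134 and 153 CPM at 6pm, and 96.3 CPM at 12am. The 12pm and 6pm ranges overlapped narrowly, and the 12am library lay within the 6am range. In the brain it had 85.6 and 76.1 CPM at 6am, 108 and 45.9 CPM at 12pm, 75.0 and 73.3 CPM at 6pm, and 89.0 and 52.8 CPM at 12am. The 12pm and 12am pairs each enclosed both 6pm values, so no clock time stood apart in the brain. At 12am against 6pm the log2 change was -0.46 in olfactory tissue (SE 0.38, edgeR adjusted p = 1.00) and -0.10 in brain (SE 0.42, adjusted p = 0.981).

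The ratio of the highest to the lowest clock-time mean sets the 4 genes side by side. In olfactory tissue it was 7.14 for *vri* (12am over 12pm), 4.25 for *cyc* (6am over 6pm), 3.75 for *Pdp1* (12am over 12pm) and 1.45 for *cry1* (6pm over 6am). In brain it was 3.86 for *cyc* (12pm over 6pm), 2.52 for *vri* (12am over 6am), 1.97 for *Pdp1* (12am over 12pm) and 1.14 for *cry1* (6am over 12am). For *vri* and *Pdp1* in olfactory tissue the top mean is a single library. These ratios use CPM with no TMM factor, whereas the edgeR changes given above use TMM. With TMM the olfactory changes between the same clock times were 6.30-fold for *vri*, 5.16-fold for *cyc*, 3.31-fold for *Pdp1* and 1.20-fold for *cry1*.

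**Figure D2:**
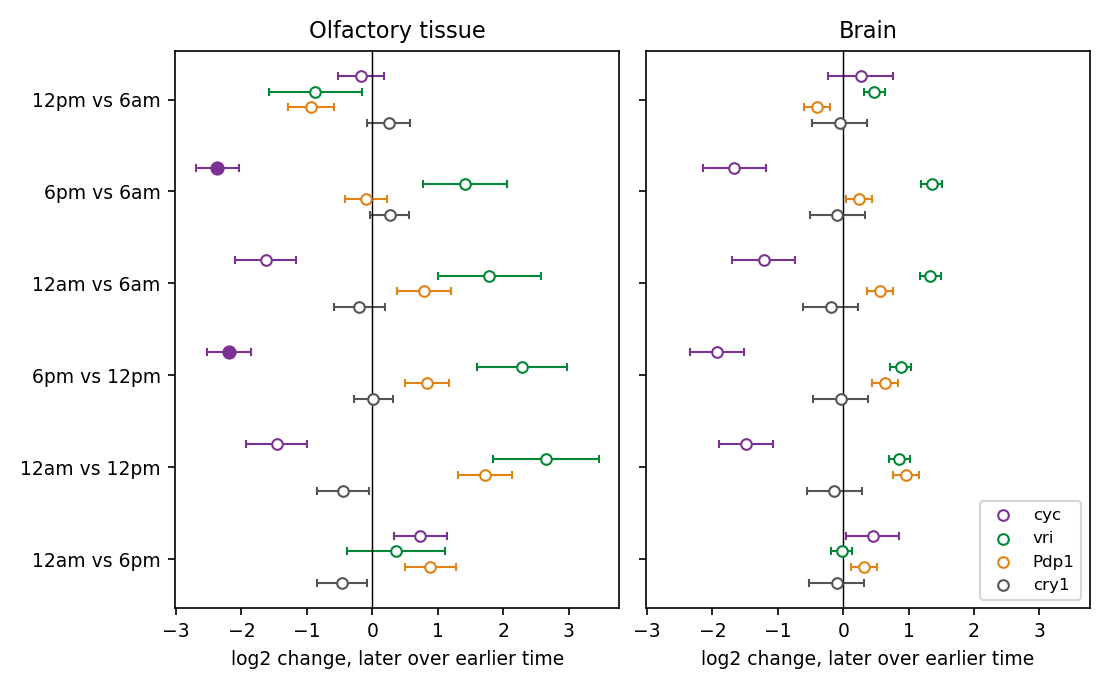
Log2 change (horizontal axis, later over earlier clock time) for the 6 pairs of clock times in olfactory tissue (left) and brain (right), with bars of ± 1 SE from edgeR; filled points have an adjusted p under 0.05 and open points do not. The 2 filled points are cyc at 6pm against 6am (-2.37) and at 6pm against 12pm (-2.19) in olfactory tissue.

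A test for any difference among the 4 clock times called none of the 4 genes in either tissue with edgeR. In olfactory tissue *cyc* had an adjusted p of 0.0506, *vri* 0.881, *Pdp1* 0.867 and *cry1* 0.928, and 3 of the 4 had an unadjusted p under 0.05. Of all 10060 genes, 5 were called (0.0497%). DESeq2 called *cyc* (adjusted p = 1.02e-06) and *vri* (0.0226), with 0.522% of genes called. With no filter on low counts edgeR called the same 2 genes, where 2.31% of 15042 genes were called. Over 17 alternatives the adjusted p of *cyc* ran from 5.47e-08 to 0.367 and passed in 9, and that of *vri* ran from 6.62e-08 to 1.00 and passed in 4. Leaving out 6am replicate 1, 6am replicate 3 or 12am replicate 3 let *cyc* pass (adjusted p = 0.0219, 0.0203 and 0.0466), and *vri* passed without the 6am libraries in turn (0.0330 without replicate 1 and 0.00556 without replicate 3).

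In the brain the adjusted p of the same edgeR test was 0.743 for *vri*, 0.999 for *Pdp1* and 0.999 for *cry1*. It was 1.00 for *cyc* in the fit of 7 libraries. Of the 4, *vri*, *Pdp1* and *cyc* had an unadjusted p under 0.05. Of all genes, 0.0103% were called in 8 libraries and 0% in 7. DESeq2 called *vri* (adjusted p = 2.31e-07) and *cyc* (0.0298), where it called 0.178% and 0.133% of genes. None of the other 16 alternatives called either gene. Of the 24 brain contrasts of the 4 genes edgeR called 0, although 12 had an unadjusted p under 0.05 and DESeq2 called 3. Over all genes, 0.867 to 3.84% had an unadjusted p under 0.05 in a contrast of 8 libraries and 1.20 to 1.84% in one of 7, and DESeq2 called 0.0137 to 0.201% and 0.00686 to 0.0343%. The edgeR share of all genes called was 0% or 0.0103% in each contrast of 8 libraries, and 0% or 0.00994% in each of 7.

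The ratio of 2 genes' counts within a library does not depend on how libraries are scaled. Its own size depends on gene lengths, so only its differences between libraries are read. The *vri* count over the *cyc* count in olfactory tissue was 0.170 and 0.637 at 6am, 0.282 and 0.304 at 12pm, 4.92 to 8.04 at 6pm (3 libraries) and 5.08 at 12am. In brain it was 0.475 in the 1 library at 6am, 0.464 and 0.805 at 12pm, 3.38 and 5.36 at 6pm, and 2.59 and 3.79 at 12am. In both tissues every library of 6pm and 12am lay above every library of 6am and 12pm.

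The *Pdp1* count over the *cyc* count gave the same split of libraries in each tissue. It was 1.67 and 3.54 at 6am, 1.05 and 1.66 at 12pm, 9.83 to 13.4 at 6pm and 12.5 at 12am in olfactory tissue. In brain it was 1.63 at 6am, 0.902 and 1.26 at 12pm, 4.52 and 8.63 at 6pm, and 5.00 and 6.88 at 12am. The CPM of *cyc*, the shared denominator, split the libraries in this way by itself in each tissue. That of *Pdp1* did not in olfactory tissue, where it was 263 and 257 CPM at 6am and 256 CPM in 6pm replicate 3.

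**Figure D3:**
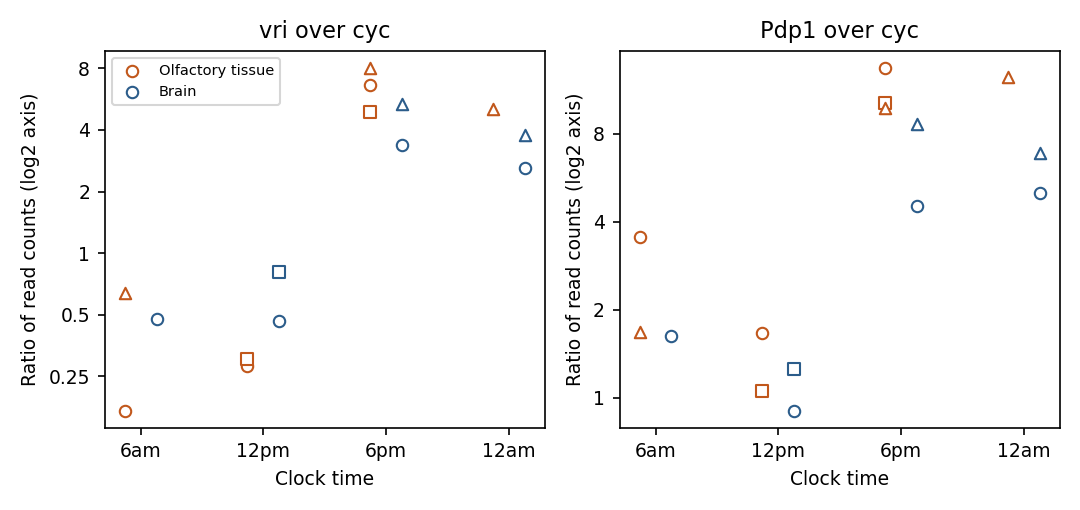
Read count of vri (left) and of Pdp1 (right) over the read count of cyc in the same library (vertical log2 axis) at each clock time; orange symbols are olfactory libraries and blue ones brain libraries, with circles, squares and triangles for replicates 1, 2 and 3. The vri ratio is at most 0.805 in 6am and 12pm libraries and at least 2.59 in 6pm and 12am libraries.

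Of the 12 pairs of genes correlated within a tissue, 0 passed (two-sided exact permutation test of Pearson's r, lowest adjusted p = 0.301). *cyc* and *vri* each fell into separate high and low libraries by clock time, so r over all libraries of a tissue is not read as a relation for their pairs. *Pdp1* and *cry1* had r = -0.178 and rho = -0.286 over 8 olfactory libraries (exact permutation p = 0.694 and 0.501, adjusted p = 0.757 and 0.601). Without the 2 libraries farthest from the median of *Pdp1*, r was 0.0238. In brain the pair had r = 0.214 and rho = 0.0476 over 8 libraries (exact permutation p = 0.615 and 0.935, adjusted p = 0.738 and 0.935), and r was -0.841 without the 2 farthest.

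The genes whose pattern over the libraries of a tissue was most like that of *cyc* or *vri* were sought among genes averaging 10 CPM or more. They are given by ID, since the files pair IDs with no names. In olfactory tissue AAEL012425 was nearest to *cyc* (r = 0.945) and AAEL021394 nearest to *vri* (r = 0.992), each over 8 libraries and 6815 genes. In brain AAEL003454 was nearest to *cyc* (r = 0.964 over 7 libraries) and AAEL010513 nearest to *vri* (r = 0.929 over 8). In olfactory tissue 417 genes reached r of at least 0.9 with *vri*, against 3 in brain. Since *cyc* and *vri* fall into high and low libraries by clock time and libraries differ in depth, these r describe likeness of pattern and are not tests of a relation.

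Averaged over clock times, all 4 genes had higher levels in olfactory tissue than in brain. The test called each of them higher, with a log2 difference of 1.81 for *Pdp1* (SE 0.15, edgeR adjusted p = 1.96e-07), 1.15 for *vri* (SE 0.29, 0.00344) and 1.06 for *cry1* (SE 0.18, 0.000174). *cyc* had 1.06 as well (SE 0.22, 0.000868), in the fit of 15 libraries without brain 6am replicate 3. The difference of *vri* was 0.63 without olfactory 6am replicate 3 (adjusted p = 0.000572). Being called higher was common, at 38.1% of all 11442 genes in 16 libraries and 36.4% in 15. The 4 calls are read against that share.

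The size of the tissue difference depended on scaling. With TMM the median log2 difference of all genes was 0.13, and with summed gene counts and no TMM factor it was -0.41. The split of calls moved from 4364 higher and 3846 lower (53.2% higher) with TMM to 3240 higher and 5286 lower (38.0% higher) without it. Without TMM *vri* was not called (log2 difference 0.61, adjusted p = 0.0852), while *cyc* (0.54, 0.0407), *Pdp1* (1.26, 4.56e-06) and *cry1* (0.51, 0.0209) still were, against 28.3% of all genes called higher in 16 libraries and 27.1% in 15. Relative to the median of all genes, the difference was 0.94 for *cyc*, 1.02 for *vri*, 1.68 for *Pdp1* and 0.93 for *cry1* with TMM, and 0.94, 1.02, 1.67 and 0.92 in that order without it. DESeq2 size factors within edgeR gave 0.94, 1.02, 1.68 and 0.93. DESeq2's own fit, with no filter on low counts, had a median of 0.74 (0.73 in 15 libraries), and relative to that the differences were lower, at 0.39 for *cyc*, 0.46 for *vri*, 1.12 for *Pdp1* and 0.37 for *cry1*.

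**Figure D4:**
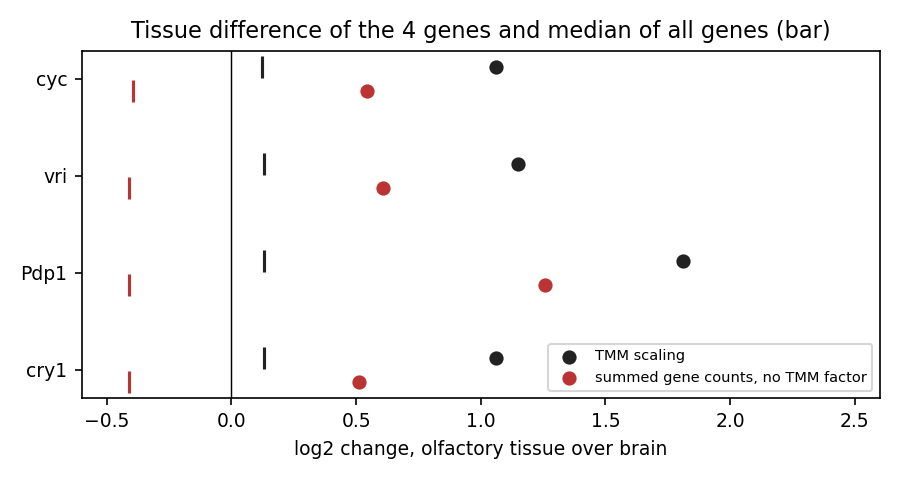
Log2 difference of cyc, vri, Pdp1 and cry1, olfactory tissue over brain (horizontal axis), under 2 scalings; points are the genes and short vertical bars the median of all genes tested in the same fit. All 4 points lie right of 0 and of their bar under both scalings, and of these 2 scalings vri passes the test with TMM (1.15) and not without it (0.61).

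The ratio of mean CPM, olfactory tissue over brain, varied with clock time for *vri*. It was 1.63 at 6am and 0.657 at 12pm, then 2.05 at 6pm and 2.57 at 12am. At 12pm both olfactory libraries lay below both brain libraries. For *cyc* it was 1.73, 1.34, 1.32 and 1.52 at 6am, 12pm, 6pm and 12am. *Pdp1* had 2.40, 1.76, 2.38 and 3.36 at the same times, and *cry1* had 1.15, 1.51, 1.82 and 1.36. The ranges of the tissues overlapped only for *vri* and *cry1* at 6am. These ratios and ranges use summed gene counts with no TMM factor, where the median log2 difference of all genes was -0.41. Averaged over clock times, the log2 difference of *vri* was 0.61 on this scale and 1.15 with TMM. The lower olfactory level of *vri* at 12pm is thus tied to this scale and was not tested.

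The test of tissue by clock time asks whether the differences between clock times differ between the tissues. It called 0 of the 4 genes with edgeR, and 0 had an unadjusted p under 0.05 (the smallest was 0.184, for *vri*, adjusted p = 0.972). DESeq2 also called 0. No gene at all was called by edgeR (0%), and 0.25% and 0% were called by DESeq2 in 16 and 15 libraries. The larger range of *vri* in olfactory tissue is thus not shown to differ from that in brain.

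Of 2 further IDs on the list of clock genes, AAEL008141 was called by the brain time test (edgeR adjusted p = 0.0156, with 0.0103% of all genes called). Its brain mean was 325 CPM at 12am and 12.1 CPM at 12pm. The olfactory time test did not call it (edgeR adjusted p = 0.123). There it had 802 CPM in the 1 library at 12am and a mean of 31.8 CPM at 12pm. AAEL011967 was called by neither time test, and both IDs were called higher in olfactory tissue.

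Lists of IDs that mark other cell types also differed between the tissues, and their part in the differences of the 4 genes was not tested. The IDs were listed from general knowledge and not checked against an annotation. The list for olfactory sensory neurons summed to 476 to 1508 CPM in olfactory libraries and 13.9 to 27.9 CPM in brain libraries, in the direction of the tissue labels. The list for photoreceptors (5 IDs, 1 of them at 0 in all libraries) summed to 999 to 1979 CPM in olfactory tissue and 75.1 to 463 CPM in brain. Nearly all of it came from AAEL009615. AAEL005625 went the other way, with means of 6.23 CPM in olfactory tissue and 8.19 CPM in brain. AAEL005373 (2.48 and 1.76 CPM) and AAEL006498 (0.41 and 0.02 CPM) were near 0. The fat body list (2 IDs) summed to 30.6 to 284 CPM in olfactory tissue and 804 to 2078 CPM in brain, nearly all from AAEL009955. AAEL010434, the other ID, was near 0 and went the other way, with means of 0.89 CPM in olfactory tissue and 0.28 CPM in brain.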

How the data were processed

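Total RNA was extracted with Trizol, and libraries were made with a NEBNext Ultra II kit (source: the labels' protocols). The values used are the deposited raw counts of reads for each gene, made by the authors with STAR and HTSeq after bcl2fastq and FastQC, per the submitters' processing notes. Genome build, annotation and strand setting were not given in the sources used here, so counts of overlapping or near-identical genes are uncertain. Of 24 *Aedes* samples listed, 16 were used and 8 were not analysed here. Groups come from the sample titles. The design text calls the replicates biological, but the labels name no separate cages, so p-values measure the spread between these samples.

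Each of the 16 files held overwritten stretches (44 in all, 64 to 224 characters). Lines lost to them were treated as missing, which removed 405 of 19804 genes (2.05%) from fits of all libraries. *cyc* was lost in brain 6am replicate 3, so its brain, tissue and tissue-by-time values come from fits without that library, a choice made after seeing the data. Lines that name no gene took 29.9 to 58.2% of reads in olfactory libraries and 34.4 to 42.0% in brain, and were left out of library sizes. The 58.2% was in olfactory 12pm replicate 2 (1139430 reads in genes), from a clock time with 2 libraries. That library also had the lowest olfactory *Pdp1* level (106 CPM). The part of this in the 12pm values was not tested.

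Genes were tested with edgeR 4.0.16 (TMM, filterByExpr, robust quasi-likelihood F-test) in R 4.3.3, with Benjamini-Hochberg adjustment over all genes tested and a threshold of 0.05. Each SE was taken as the log2 change divided by the root of its F value. Tissue and any difference in library handling between the tissues cannot be told apart. Alternatives were DESeq2 1.42.0, its size factors in edgeR, no TMM factor, no filter on low counts, a mean of at least 50 counts, a replicate block, 24-hour cosine and sine terms, 1 fit of both tissues, leaving out 12am, genes near damage or each library. Correlations used log2(CPM + 1). Only the edgeR time test was tried on simulated data, in the layout of the brain libraries.

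The members, lists and tests were chosen with earlier results of these data known. The 4 genes were named in full, as were the IDs most like *cyc* and *vri* and those of the clock list. IDs most like *Pdp1* and *cry1* were found by the same rule but are not printed, since unnamed IDs are kept to a few.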

Additional observations from a re-analysis of the deposited data

How the results depend on the processing

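The numbers of the 4 genes called in each test were recomputed under each alternative. In the brain time test DESeq2 called 2 and the others 0 (0 to 0 without each library in turn), and of the brain contrasts DESeq2 called 3. In the olfactory time test 1 gene was called with DESeq2 size factors in edgeR, without genes near overwritten stretches (3 genes with a value) and with cosine and sine terms, and 2 with DESeq2 and with no low-count filter. Leaving out each library in turn gave 0 to 2. Of the olfactory contrasts, 5 were called with DESeq2, 0 with no TMM factor, 7 with no low-count filter, 1 in 1 fit of both tissues, and 0 to 6 without each library in turn. A contrast then called 0.00665 to 0.554% of all genes with DESeq2, 0.346 to 1.25% with no filter and 0 to 0.0795% with no TMM factor, against 0 to 0.0994% with edgeR as reported. The tissue test called 3 or 4 genes, and the tissue-by-time test 0 throughout.

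Replicate numbers were not taken to pair the samples, since the labels tie them to no shared batch. Most same-numbered pairs, though not all, had a correlation of deviations over 0.1. In brain 8 of 9 pairs did (range -0.163 to 0.499, median 0.242, against -0.242 for other pairs), and in olfactory tissue 4 of 5 did (-0.245 to 0.187, median 0.133, against -0.082). Deviations of 2 libraries at 1 clock time mirror each other, so pairs are not independent. With the replicate block 1 gene was called in the olfactory time test (*cyc*, adjusted p = 0.00112) and 0 in the brain. The olfactory *cyc* contrasts of 6pm with 6am and with 12pm then had edgeR adjusted p of 0.00201 and 0.00753.

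Signs under the alternatives were followed for the contrasts of 6pm with 6am and with 12pm for *cyc* and *vri*. They were also followed for 12am against 12pm in *Pdp1*, 12am against 6pm in *cry1*, the tissue differences and the correlations. Among these, signs changed for 1 contrast and 3 correlations. Other contrasts between clock times were not followed in this way. The log2 change of *cry1* in brain at 12am against 6pm ran from -0.50 to 0.21 without each library in turn. Pearson's r, read as no relation where *vri* enters, ran from -0.321 to 0.0218 for *vri* and *cry1* in brain, from -0.318 to 0.578 for *Pdp1* and *cry1* in brain, and from -0.268 to 0.0561 for *Pdp1* and *cry1* in olfactory tissue. The cause of these changes was not tested. Depth limits olfactory tissue most, where the shallowest library held 24 reads of *cyc*, and 12am rests on 1 library.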
